A study of Mus musculus with 8 samples.

Results

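The constitutive chaperones of the cytosol and mitochondria, with their cochaperones and the heat shock factors HSF1 and HSF2, were examined as a set of 42 genes in NIH3T3 cells, an established mouse fibroblast line of wild-type genotype. The genes were taken by name, and each matched 1 of the 78298 rows (canonical transcripts) of the count table. The inducible Hsp70 and small heat shock genes are not among them. Poly(A) RNA was sequenced in 4 libraries from cells given Mic-628 for 1 day and 4 from cells given vehicle for 1 day, all grown in DMEM with 10% fetal bovine serum. The title of the series speaks of a Period1 inducer, Period1 being a clock gene. Each Mic-628 library carries the same batch label as 1 vehicle library, and the dose was not given in the sources used here. No label says that replicates came from separate dishes, so the tests weigh differences only against the scatter of these 8 libraries, and part of that scatter may be technical.

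Chaperones help other proteins to fold, to refold after damage and to reach their partners. Hsp70 proteins bind unfolded stretches in an ATP-driven cycle that J-domain proteins start and that nucleotide exchange factors, among them the Hsp110 and BAG proteins, end. Hsp90 acts late in folding on kinases and steroid receptors with a set of cochaperones, the ring-shaped TRiC/CCT complex folds actin and tubulin, and mitochondria have their own Hsp70, Hsp60, Hsp10 and Hsp90. Most of these genes are transcribed without stress in growing cells. A subset is raised further by heat or misfolded protein through HSF1, which binds inverted repeats of the letters GAA, called heat shock elements.

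Because the heat shock element is the best known control sequence of these genes, it was looked for in the 300 bases around each annotated start (250 before and 50 after), taken from RefSeq on GRCm38.p6, which is not the mm39 build of the count table. Windows were found for 35 of the 42 genes, 49 windows in all. Hspa8, Hspa9, Hsp90aa1, Hsp90ab1, St13, Cct4 and Hsf1 had none. An extended element of 13 letters, GAANNTTCNNGAA or its reverse complement TTCNNGAANNTTC, where N is any base, was found for 5 of the 35 genes, Hspd1, Hspe1, Dnajb6, Hsph1 and Chordc1. It was found in 7 of the 49 windows (14.3%), against 0.603% of all 32851 windows of that length. A core element, GAANNTTC or TTCNNGAA, each of which is its own reverse complement, was found in 16 of the 49 windows (32.7%), against 15.1% of all windows. The core element is part of the extended one, so the counts overlap. Windows of the same gene can overlap too, and Hspd1 and Hspe1 share their match. Counted by gene, the extended element was found for 14.3% of the 35, against 0.662% of all 27025 genes with a window. The core element was found for 14 of the 35 (40%), against 17% of all genes with a window. The stretches below lie wholly before a start, with up to 20 bases on either side of the match in lower case and the match in capitals. They are shown for the extended element and, where a gene has only the core element before its start, for that one in genes whose values are given by library below.
Hspe1: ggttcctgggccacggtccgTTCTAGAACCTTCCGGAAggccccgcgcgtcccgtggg
Hspd1: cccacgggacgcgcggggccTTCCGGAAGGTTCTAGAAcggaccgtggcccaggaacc
Dnajb6: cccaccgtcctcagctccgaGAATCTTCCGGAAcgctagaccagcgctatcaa
Hsph1: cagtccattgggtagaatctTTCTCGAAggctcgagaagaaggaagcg
Dnaja1: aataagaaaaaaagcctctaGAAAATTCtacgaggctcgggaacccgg
Dnajb4: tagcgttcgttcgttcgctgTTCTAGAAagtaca
The Hspe1 and Hspd1 stretches are the plus and the minus strand of the same DNA, chr1:55088039-55088096, because these genes, for mitochondrial Hsp10 and Hsp60, face away from each other. Their capitals are 2 overlapping extended matches. The Dnajb6 stretch is chr5:29735832-29735884 (plus strand), that of Hsph1 chr5:149636342-149636389 (minus), that of Dnaja1 chr4:40722324-40722371 (plus) and that of Dnajb4 chr3:152193846-152193879 (minus), all on GRCm38.p6. In Hsph1 and Chordc1 the extended element lay across or after the start. For Hspd1, Dnaja1 and Dnajb4, windows at other annotated starts of the same gene held neither element. The printed stretch therefore need not belong to the start of the transcript that was counted. For Dnaja1 the counted transcript is listed from chr4:40722922 on mm39. If both builds number this stretch alike, that position lies in the windows chr4:40722672-40722971 and chr4:40722680-40722979, which held neither element. A match is a description of letters and shows no binding.

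Counts on listed transcripts summed to between 18106347 and 23158317 per library. All 10 fibroblast markers examined, among them Vim, Col1a1 and Pdgfrb, were above 1 CPM (counts scaled to library size with TMM). Of the markers of other cell types, 1 of 5 epithelial (Krt14), 2 of 5 macrophage and blood (Cd68 and Csf1r), 1 of 3 neural (Tubb3), 0 of 4 endothelial and 0 of 4 skeletal muscle markers were above 1 CPM, and Epcam, Adgre1, Myod1, Myog and Rbfox3 had no count in any library. The macrophage and blood markers summed to 16.3 to 17.7 CPM with Mic-628 and 14.6 to 16.1 CPM with vehicle, the neural ones to 6.30 to 7.82 and 7.52 to 8.14 CPM, and the epithelial ones to 2.49 to 3.84 and 2.49 to 3.01 CPM. The endothelial markers summed to 0.687 to 0.853 CPM with Mic-628 and 0.692 to 1.41 CPM with vehicle, and the skeletal muscle ones to 0.644 to 1.22 and 0.658 to 0.841 CPM. The summed level of the fibroblast markers was 20941 to 21542 CPM with Mic-628 and 23792 to 25368 CPM with vehicle. The part of these marker levels in the results on chaperones was not tested. In these bulk libraries, fewer cells that express a gene and less RNA per cell cannot be told apart.

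Levels of different genes were set side by side as FPKM, which divides by transcript length. Hsp90ab1, the constitutive cytosolic Hsp90, was the most abundant of the 42 at 1776 ± 22.6 FPKM with Mic-628 and 1848 ± 12.9 FPKM with vehicle (SD, n = 4 each). Hspa8, the main constitutive Hsp70, came next at 786 ± 13.04 FPKM with Mic-628 and 787 ± 21.9 FPKM with vehicle (SD, n = 4 each). Hspa9, the mitochondrial Hsp70, had 438 ± 2.88 FPKM with Mic-628 and 432 ± 5.61 FPKM with vehicle (SD, n = 4 each). These levels were far above that of Dnaja4, a J-domain gene and the lowest of the set, at 0.171 ± 0.0338 FPKM with Mic-628 and 0.0953 ± 0.0556 FPKM with vehicle (SD, n = 4 each). The 8 TRiC subunit genes were the most even group, with vehicle means between 134.9 FPKM for Cct6a and 266.5 FPKM for Cct5. In CPM, the 42 genes summed to 17466 ± 163 with Mic-628 and 17341 ± 184 with vehicle (SD, n = 4 each), which is 1.75% and 1.73% of all counts.

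**Figure D1:**
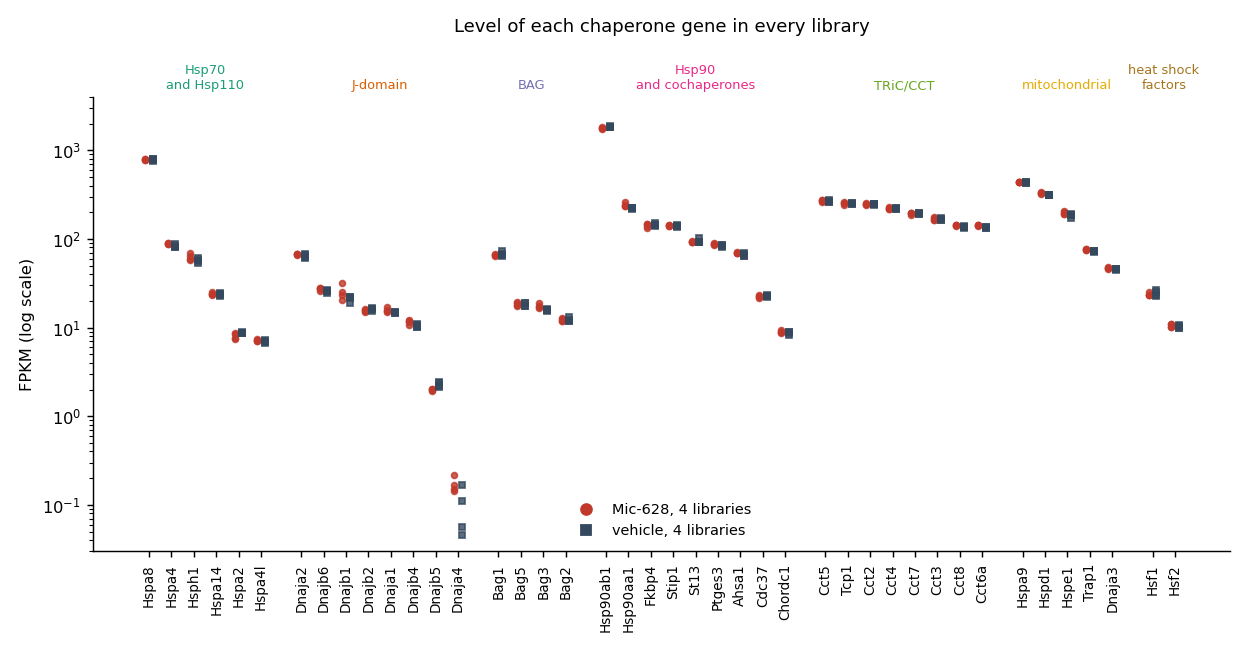
FPKM (log scale) of each of the 42 genes in the 4 Mic-628 libraries (circles) and the 4 vehicle libraries (squares), by role. Hsp90ab1 stands highest and Dnaja4 lowest, and for most genes the points of both groups lie close together.

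After 1 day of Mic-628, 2 of the 42 genes rose, 0 fell and 40 were not called. Those that rose were Hsp90aa1, the stress-inducible cytosolic Hsp90, which was 10.7% higher (95% interval 5.42% to 16.3%), and Bag3, a nucleotide exchange factor that links Hsp70 to autophagy, which was 11.3% higher (4.82% to 18.1%). A gene was called where edgeR's quasi-likelihood test gave a Benjamini-Hochberg adjusted p under 0.05 over all 17128 tested rows. That rule called 4.37% of the tested rows, 2.13% as higher and 2.25% as lower. The 2 of 42 are 4.76%, close to the share over all rows, so the count alone is no result about chaperones. DESeq2 called 0 of the 42 lower as well. All 42 passed the filter on low counts, Dnaja4 with rounded counts of 8, 16, 12 and 10 in Mic-628 replicates 1 to 4 and 3, 4, 8 and 12 in vehicle replicates 1 to 4.

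At an unadjusted p under 0.05 there were 13 genes higher (31.0%) and 2 lower (4.76%), against 8.15% and 8.81% of all tested rows. Fold changes above 0 were found for 32 of the 42 genes (76.2%), against 48.4% of all rows. The median log2 fold change was 0.04 over the 42 genes and -0.0040 over all rows. Most of the differences were therefore small and positive. The 42 genes had a median SE of 0.035, against 0.067 over all rows. Their median absolute log2 fold change was 0.054, against 0.072 over all rows. The shares at a given p thus compare genes measured with unequal precision, and the part of precision in them was not tested.

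**Figure D2:**
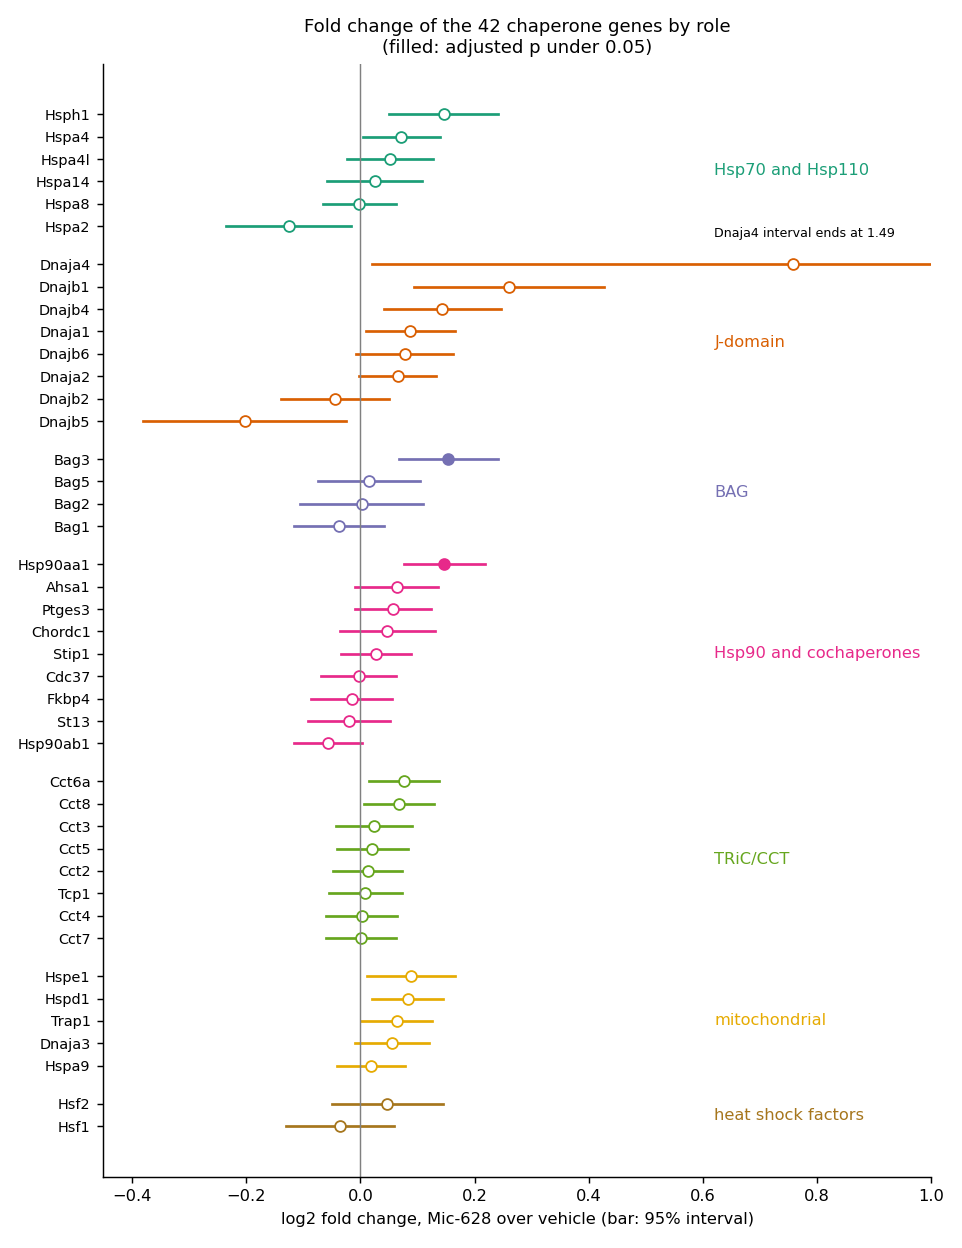
Log2 fold change of Mic-628 over vehicle for the 42 genes by role, with 95% intervals from edgeR and filled points for an adjusted p under 0.05. Hsp90aa1 and Bag3 are the filled points, both near 0.15, and all mitochondrial and TRiC points lie above 0, though 5 of the 8 TRiC genes turned negative under some alternatives.

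Among Hsp90 and its cochaperones, 1 of 9 genes was called. Hsp90aa1 (ENSMUST00000094361.11, chr12:110657039-110662829 on mm39, minus strand) had 836, 831, 851 and 927 CPM in Mic-628 replicates 1 to 4, against 786, 776, 785 and 764 CPM in vehicle replicates 1 to 4. Every Mic-628 library was above every vehicle library, with replicate 4 furthest up. The edgeR fit put the change at 0.15 on the log2 scale with an SE of 0.034 (adjusted p = 0.0121), and all 4 batch pairs went the same way. It was still called with the batch number as a block (edgeR adjusted p = 0.0276). It was not called without batch 3 (0.0877) or batch 4 (0.119), nor by limma-trend on log2(FPKM + 1) (adjusted p = 0.0847), and over 25 alternatives the adjusted p lay between 0.000515 and 0.402. A row on the opposite strand overlaps the Hsp90aa1 locus at 8.45 CPM, against 819 CPM for Hsp90aa1 itself, and whether counting used strand is not given in the sources used here.

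Hsp90ab1 (ENSMUST00000024739.14, chr17:45878701-45884197 on mm39, minus strand) had 4794, 4861, 4727 and 4799 CPM in Mic-628 replicates 1 to 4, against 5026, 4979, 4948 and 5006 CPM in vehicle replicates 1 to 4. Here every Mic-628 library was below every vehicle library, and no call was made (edgeR log2 fold change -0.06, with SE 0.029 and adjusted p = 0.317). Its locus overlaps Gm56882 on the opposite strand, which had 232 CPM. The isoforms thus had opposite signs.

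The log2 ratio of Hsp90aa1 to Hsp90ab1 in CPM was -2.48 ± 0.077 with Mic-628 and -2.68 ± 0.023 with vehicle (SD, n = 4 each), a difference of 0.20. Since Hsp90aa1 was higher and Hsp90ab1 lower in every Mic-628 library than in any vehicle library, the groups could not overlap in this ratio. Its exact two-sided permutation p of 0.0286 (0.0857 with Benjamini-Hochberg adjustment over the 3 ratios) is the lowest that 4 libraries a group allow, follows from that separation and adds nothing to it. Over the 4 batch pairs, all higher, the exact sign-flip p was 0.125, also the lowest possible. In FPKM, Hsp90ab1 was 7.28 times Hsp90aa1 with Mic-628 and 8.37 times with vehicle. Both isoforms together came to 5656 ± 65.5 CPM with Mic-628 and 5767 ± 33.4 CPM with vehicle (SD, n = 4 each), so the sum was set mainly by Hsp90ab1.

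None of the 7 cochaperone genes was called by edgeR or DESeq2, and 0 had an unadjusted p under 0.05. Over all tested rows, 8.15% were higher and 8.81% lower at that p. Log2 fold changes were 0.06 for Ahsa1, the activator of the Hsp90 ATPase, 0.06 for Ptges3, which encodes p23, and 0.05 for Chordc1. They were 0.03 for Stip1, the adaptor between Hsp70 and Hsp90, -0.0030 for the kinase adaptor gene Cdc37, -0.02 for the immunophilin gene Fkbp4 and -0.02 for St13, which encodes an Hsp70-interacting protein. Their edgeR adjusted p lay between 0.367 and 0.980. By level, Fkbp4 was the highest of these at 143 ± 6.72 FPKM with Mic-628 and 144 ± 3.60 FPKM with vehicle (SD, n = 4 each). Chordc1 was the lowest at 8.98 ± 0.339 FPKM with Mic-628 and 8.68 ± 0.332 FPKM with vehicle (SD, n = 4 each). The Ptges3 locus overlaps Gm47438 on the opposite strand, which had 214 CPM, against 183 CPM for Ptges3 itself.

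Among the 4 BAG genes, Bag3 (ENSMUST00000033136.9, chr7:128125340-128148705 on mm39, plus strand) had 46.5, 47.3, 48.1 and 51.8 CPM in Mic-628 replicates 1 to 4, against 43.8, 43.9, 44.4 and 42.1 CPM in vehicle replicates 1 to 4. The groups did not overlap, and replicate 4 was the highest with Mic-628 and the lowest with vehicle. In edgeR the log2 difference was 0.15 with an SE of 0.042 (adjusted p = 0.0333), and 4 of 4 batch pairs were higher. The call was lost under 15 of 25 alternatives, within a range of adjusted p of 0.0199 to 0.447. It was lost with the batch number as a block (edgeR adjusted p = 0.0684) and in DESeq2 (adjusted p = 0.0579). It was also lost without vehicle replicate 2 (0.0832), 3 (0.0592) or 4 (0.0903), without Mic-628 replicate 3 (0.0792) or 4 (0.124), and without batch 2 (0.1005), 3 (0.128) or 4 (0.250). A row on the opposite strand, 4921520J07Rik, overlaps the Bag3 locus at 7.89 CPM, against 46.0 CPM for Bag3.

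Bag1 (-0.04), Bag2 (0.0021) and Bag5 (0.02) had log2 fold changes near 0 and were not called by edgeR. Bag1, also an exchange factor for Hsp70, was the most abundant of the family at 66.0 ± 1.15 FPKM with Mic-628 and 67.8 ± 4.13 FPKM with vehicle (SD, n = 4 each). Bag2 was the least abundant at 12.3 ± 0.462 FPKM with Mic-628 and 12.3 ± 0.678 FPKM with vehicle (SD, n = 4 each).

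The J-domain genes, whose products start the Hsp70 cycle, had 0 of 8 called by edgeR or DESeq2 and 5 at an unadjusted p under 0.05. Of these 5, Dnajb5 was lower and the others higher, where all tested rows had 8.81% lower and 8.15% higher. Dnajb1, the main stress-inducible Hsp40 gene, had 66.3, 81.5, 75.3 and 104 CPM in Mic-628 replicates 1 to 4, against 71.3, 69.8, 70.9 and 62.1 CPM in vehicle replicates 1 to 4. Mic-628 replicate 1 lay among the vehicle libraries and replicate 4 far above the others. The log2 difference of 0.26 (SE 0.081) was the largest among the 42 after that of Dnaja4, and edgeR did not call it (adjusted p = 0.0699). Without Mic-628 replicate 4 it was 0.13 (edgeR adjusted p = 0.235), and without batch 4 it was 0.08 (0.476). It was called without Mic-628 replicate 1 (0.00706), without vehicle replicate 1 (0.0464) and without batch 1 (0.00118). It was also called with no low-count filter (1.99e-08), where the log2 difference was still 0.26. The lower p there thus came without a larger difference, and its source was not tested.

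Dnajb4, another cytosolic Hsp40 gene, had 30.7, 31.8, 28.3 and 31.7 CPM in Mic-628 replicates 1 to 4, against 28.3, 27.1, 28.8 and 26.7 CPM in vehicle replicates 1 to 4. The groups overlapped through Mic-628 replicate 3, and the log2 difference was 0.14 (SE 0.050, edgeR adjusted p = 0.111). Dnaja1, an Hsp40 gene that heat also raises, had 95.6, 92.7, 91.1 and 103 CPM in Mic-628 replicates 1 to 4, against 91.6, 89.99, 89.4 and 89.1 CPM in vehicle replicates 1 to 4. Mic-628 replicate 3 was just below the highest vehicle library, and the log2 difference was 0.09 (SE 0.038, edgeR adjusted p = 0.228). The Dnaja1 locus overlaps Smu1 on the opposite strand, which had 79.2 CPM.

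Dnajb5 ran the other way, with 6.52, 6.70, 6.80 and 6.39 CPM in Mic-628 replicates 1 to 4, against 7.97, 7.01, 7.28 and 8.18 CPM in vehicle replicates 1 to 4. Every Mic-628 library was below every vehicle library at this low level, and edgeR made no call (log2 difference -0.20, SE 0.086, adjusted p = 0.216). Dnaja2 (0.07), Dnajb6 (0.08) and Dnajb2 (-0.04) had log2 fold changes closer to 0. Dnaja2 was the most abundant J-domain gene at 67.0 ± 1.07 FPKM with Mic-628 and 64.0 ± 2.48 FPKM with vehicle (SD, n = 4 each). Dnaja4 had the largest log2 fold change of the 42, 0.76, at so low a level that its 95% interval ran from 0.02 to 1.49 (edgeR adjusted p = 0.279).

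The log2 ratio of Dnajb1 to its constitutive relative Dnaja2 was -1.38 ± 0.29 with Mic-628 and -1.55 ± 0.098 with vehicle (SD, n = 4 each). The groups overlapped (exact permutation p = 0.343, and 0.514 adjusted over the 3 ratios).

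Of the 6 Hsp70 and Hsp110 genes, 0 were called by edgeR or DESeq2 and 3 had an unadjusted p under 0.05. Among these 3, Hspa2 was lower and the others higher, where all tested rows had 8.81% lower and 8.15% higher. Hsph1, the heat-inducible Hsp110 gene, had 198, 217, 195 and 235 CPM in Mic-628 replicates 1 to 4, against 179.9, 188, 204 and 192 CPM in vehicle replicates 1 to 4. The groups overlapped, with Mic-628 replicates 2 and 4 above all vehicle libraries. The log2 difference was 0.15 (SE 0.046, edgeR adjusted p = 0.0782). It was called without vehicle replicate 3 (0.0490), Mic-628 replicate 1 (0.0492), Mic-628 replicate 3 (0.0462), batch 1 (0.0482) or batch 3 (0.0325). It was also called with no low-count filter (0.00225), where the log2 difference was still 0.15. Without Mic-628 replicate 4 the Hsph1 difference was 0.10 (0.257). Hspa4, its constitutive relative, had 0.07 (edgeR adjusted p = 0.252). The log2 ratio of Hsph1 to Hspa4 was -1.05 ± 0.15 with Mic-628 and -1.12 ± 0.12 with vehicle (SD, n = 4 each; exact permutation p = 0.514, and 0.514 adjusted over the 3 ratios).

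Hspa2, an Hsp70 gene best known from male germ cells, had 20.9, 22.9, 23.3 and 20.6 CPM in Mic-628 replicates 1 to 4, against 24.0, 23.9, 23.9 and 24.0 CPM in vehicle replicates 1 to 4. All Mic-628 libraries were lower, replicates 2 and 3 only slightly, and edgeR made no call (log2 difference -0.13, SE 0.053, adjusted p = 0.216). The SD was 0.0516 CPM with vehicle and 1.39 CPM with Mic-628 (n = 4 each). The separation of the groups depends on that narrow vehicle spread. Hspa8 had 2004, 2045, 1981 and 2049 CPM in Mic-628 replicates 1 to 4, against 2061, 1949, 2003 and 2075 CPM in vehicle replicates 1 to 4. The groups lay across the same range, and the 95% interval of the change ran from -4.42% to 4.39% (edgeR adjusted p = 0.988). Hspa4l (0.05), the least abundant of the 6, and the ribosome-associated Hspa14 (0.02) were not called. Hspa8 and other abundant chaperone genes have processed pseudogene copies in the mouse genome, and how reads shared with these were counted is not given in the sources used here.

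**Figure D3:**
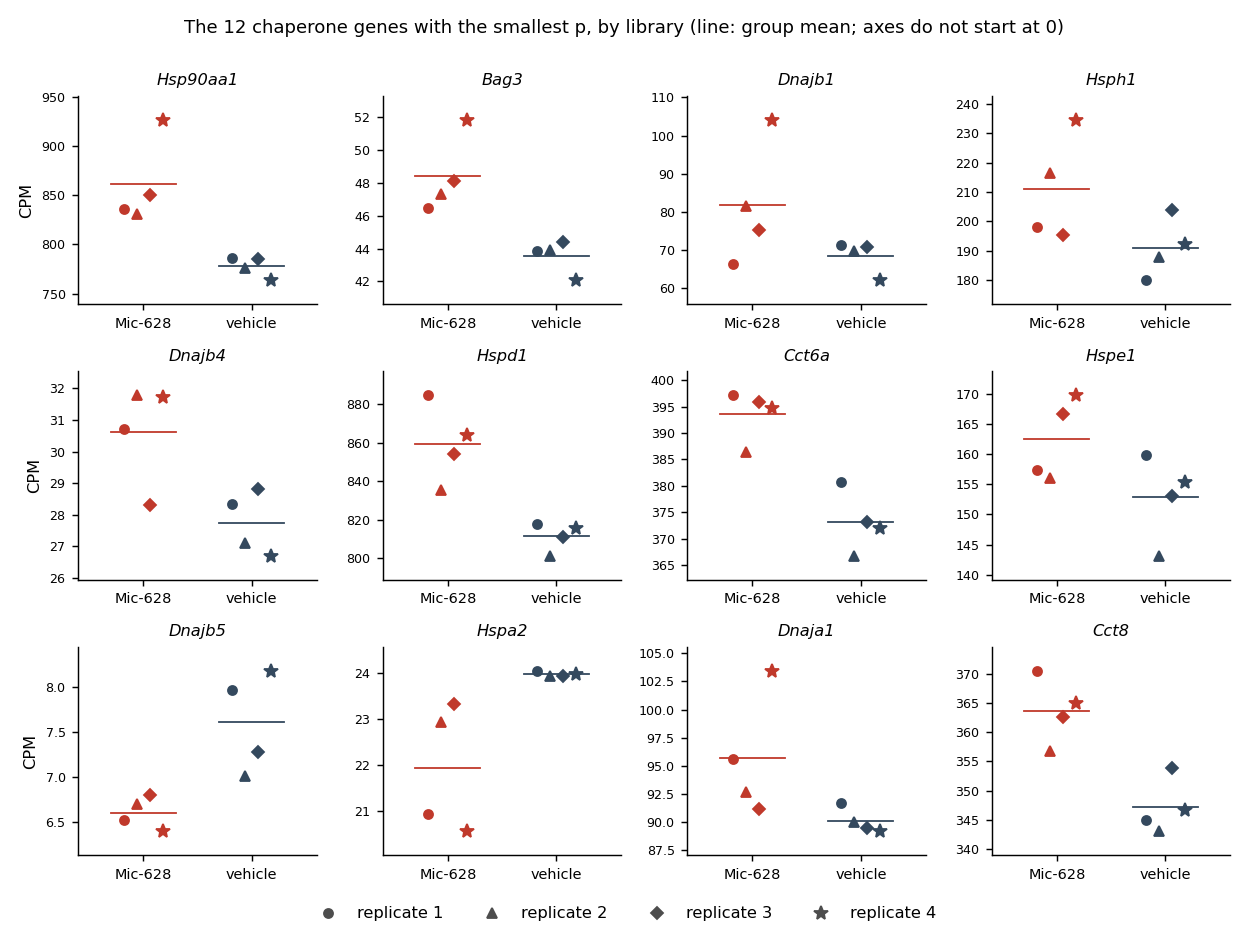
CPM of 12 genes in each library, with 1 symbol per replicate number, Mic-628 at left in each panel and vehicle at right, and lines at group means. Mic-628 replicate 4 (star) is the highest of its group for Hsp90aa1, Bag3, Dnajb1, Hsph1, Hspe1 and Dnaja1.

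Of the 12 genes with the smallest p, 6 had their highest Mic-628 value in replicate 4. In Dnajb1 that library was 1.40 times the mean of the other 3 Mic-628 libraries, in Hsph1 1.15 times, in Dnaja1 1.11 times, in Hsp90aa1 1.104 times, in Bag3 1.095 times and in Hspe1 1.06 times. Over all 42 genes, replicate 4 was the highest Mic-628 library for 13, replicate 2 for 11, and replicates 1 and 3 for 9 each. Among the vehicle libraries, replicate 1 was the highest for 23 of the 42 genes, replicate 4 for 9, replicate 3 for 8 and replicate 2 for 2. Without batch 1, 5 of the 42 genes were called higher (Hsp90aa1, Bag3, Dnajb1, Hsph1 and Hspe1). Over all rows there were then 733 calls in either direction, against 749 in the main fit. Leaving out vehicle replicate 1 alone gave 3 of the 42 higher, with 802 calls over all rows. Leaving out Mic-628 replicate 1 alone gave 4, with 526 calls over all rows. The calls over all rows are not split by direction here. The inducible Hsp70 gene Hspa1b, which is not among the 42, was also highest in Mic-628 replicate 4, with 21.4, 19.3, 31.6 and 54.2 CPM in Mic-628 replicates 1 to 4, against 10.7, 11.4, 12.2 and 11.7 CPM in vehicle replicates 1 to 4. Its nearly identical neighbour Hspa1a had 5.14, 5.41, 8.28 and 15.3 CPM in Mic-628 replicates 1 to 4, against 2.28, 3.60, 3.35 and 2.63 CPM in vehicle replicates 1 to 4. Without batch 4, 0 of the 42 genes were called, while 668 of all rows were. Hsp90aa1 and Bag3 then had log2 fold changes of 0.10 and 0.11 (edgeR adjusted p = 0.119 and 0.250). What sets these libraries apart was not tested.

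The 8 TRiC/CCT genes, subunits of the chaperonin that folds actin and tubulin, had log2 fold changes between 0.00098 and 0.08, of which those of Cct2, Cct3, Cct4, Cct7 and Tcp1 turned negative under 1 to 7 of the 25 alternatives. None was called by edgeR or DESeq2, and 2 were higher at an unadjusted p under 0.05, as were 8.15% of all tested rows. Cct6a had 397, 386, 396 and 395 CPM in Mic-628 replicates 1 to 4, against 381, 367, 373 and 372 CPM in vehicle replicates 1 to 4. The groups did not overlap (log2 difference 0.08, SE 0.029, edgeR adjusted p = 0.162). Cct8 had 371, 357, 363 and 365 CPM in Mic-628 replicates 1 to 4, against 345, 343, 354 and 347 CPM in vehicle replicates 1 to 4. These groups did not overlap either (log2 difference 0.07, SE 0.030, edgeR adjusted p = 0.236). The loci of both overlap a gene on the opposite strand, Psph for Cct6a (73.2 CPM) and Usp16 for Cct8 (39.5 CPM).

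The other 6 TRiC genes, Cct3 (0.02), Cct5 (0.02), Cct2 (0.01), Tcp1 (0.0090), Cct4 (0.0026) and Cct7 (0.00098), had log2 fold changes nearer 0. The 95% intervals of all 8 lay within -0.06 to 0.14. The summed level of the complex was 3919 ± 44.5 CPM with Mic-628 and 3859 ± 30.8 CPM with vehicle (SD, n = 4 each).

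All 5 mitochondrial chaperone genes had log2 fold changes above 0, from 0.02 for Hspa9 to 0.09 for Hspe1, and kept that sign under all 25 alternatives. None was called by edgeR, and 3 were higher at an unadjusted p under 0.05, as were 8.15% of all tested rows. Hspd1, which encodes Hsp60, had 885, 836, 854 and 864 CPM in Mic-628 replicates 1 to 4, against 818, 801, 811 and 816 CPM in vehicle replicates 1 to 4. The groups did not overlap, and the log2 difference was 0.08 (SE 0.030, edgeR adjusted p = 0.131), while DESeq2 called it (adjusted p = 0.0490). Hspe1, for the Hsp10 lid of the same chaperonin, had 157, 156, 167 and 169.8 CPM in Mic-628 replicates 1 to 4, against 159.9, 143, 153 and 155 CPM in vehicle replicates 1 to 4. Its groups overlapped (log2 difference 0.09, SE 0.037, edgeR adjusted p = 0.211), and it was called without batch 1 (0.0449).

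On mm39, Hspd1 (chr1:55116994-55127183, minus strand) and Hspe1 (chr1:55127291-55130466, plus strand) are listed with 107 bases between their starts, and the overlapping heat shock elements printed above are from the promoter they share. Trap1, the mitochondrial Hsp90 (0.06), and the mitochondrial J-domain gene Dnaja3 (0.06) had groups that did not overlap, with Mic-628 above vehicle and no call. Hspa9 was the most abundant of the 5 and Dnaja3 the least, at 47.3 ± 0.660 FPKM with Mic-628 and 45.5 ± 0.510 FPKM with vehicle (SD, n = 4 each). The 5 genes summed to 2764 ± 32.7 CPM with Mic-628 and 2674 ± 29.6 CPM with vehicle (SD, n = 4 each).

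In all, 7 of the 42 genes had every Mic-628 library above every vehicle library (Hsp90aa1, Bag3, Cct6a, Cct8, Hspd1, Trap1 and Dnaja3), which is 16.7% against 5.63% of all tested rows. In the other direction there were 3 (Hspa2, Dnajb5 and Hsp90ab1), 7.14% against 5.07%. The separation of Hspa2 depends on the narrow vehicle spread given above. The smaller median SE of the 42 genes also bears on these shares, and its part was not tested. The 5 genes with an extended heat shock element had log2 fold changes of 0.05 to 0.15 with a median of 0.08, and the other 30 genes with a window had -0.20 to 0.76 with a median of 0.04. Bag3 and Dnajb1 had no extended element in their windows.

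The heat shock factor genes themselves were not called by edgeR or DESeq2. Hsf1 had 52.0, 55.6, 52.0 and 51.7 CPM in Mic-628 replicates 1 to 4, against 50.3, 51.6, 56.5 and 58.5 CPM in vehicle replicates 1 to 4. Its groups overlapped (log2 difference -0.04, SE 0.046, edgeR adjusted p = 0.757). For Hsf2 the log2 difference was 0.05 (SE 0.047, edgeR adjusted p = 0.675). HSF1 is mainly controlled after translation, and transcript levels do not measure its activity.

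**Figure D4:**
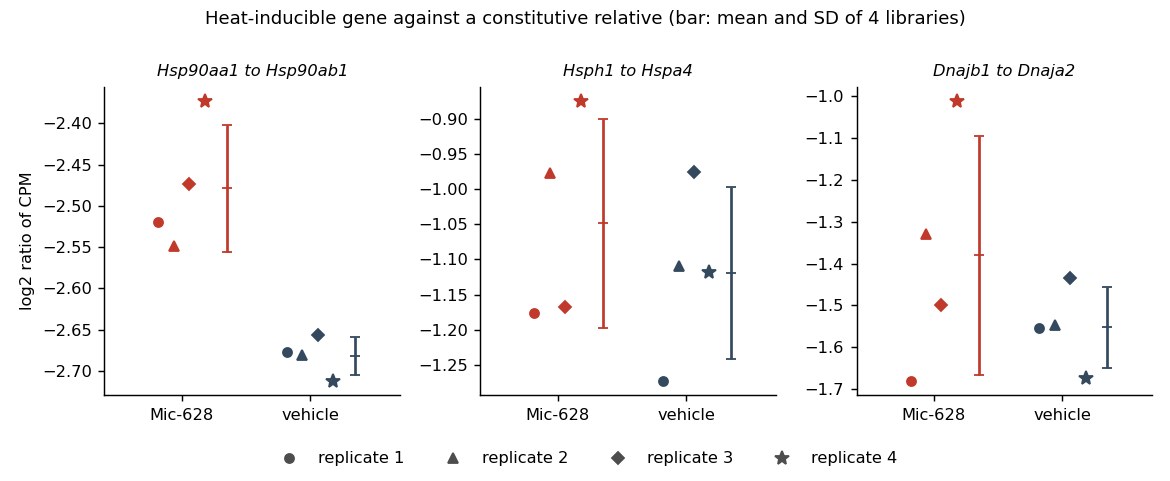
Log2 ratio of CPM of a heat-inducible gene to a constitutive relative in each library, Mic-628 at left and vehicle at right, with symbols as replicate numbers and bars for the mean and SD of 4 libraries. The groups are apart for Hsp90aa1 to Hsp90ab1 and overlap for Hsph1 to Hspa4 and Dnajb1 to Dnaja2.

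A wider set of 56 chaperone network genes (among them prefoldin subunits, further J-domain and Hsp90 cofactors, and mitochondrial import and protease genes) was read from the same fit. All 56 were tested and 0 were called by edgeR or DESeq2, where edgeR called 4.37% of all tested rows. At an unadjusted p under 0.05, 7 were higher (12.5%) and 4 lower (7.14%), against 8.15% and 8.81% of all tested rows. Their median log2 fold change was 0.01. The closest to a call, named after the values were seen, was Dnajc9, a histone chaperone with a J-domain (log2 difference 0.20, SE 0.057, edgeR adjusted p = 0.05002). Its groups did not overlap.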

How the data were processed

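Poly(A) RNA of NIH3T3 cells was sequenced in 8 libraries made with a TruSeq Stranded mRNA kit, per the labels' protocols. The submitters' processing notes name bcl2fastq, STAR 2.7.10a and HOMER 4.11 with GRCm39 (mm39). Strand use and multi-mapping are not given in the sources used here. The authors deposited exon counts per canonical transcript, in steps of 0.5 and so treated as estimated counts, and FPKM values, which recomputation from counts, lengths and header totals matched to 0.0005. Columns were matched by library name, and 0 were left over. Counts were rounded, and edgeR 4.0.16 (R 4.3.3) ran filterByExpr with a minimum count of 10, TMM and the quasi-likelihood F test, with all 17128 rows adjusted together. The fit was also run on counts simulated from its own model, without batch differences. That run does not test the calls made here. CPM values are TMM-scaled, with a prior count of 0.5 for log2 ratios. Header totals ran from 19627356 to 25057594 per library. The common coefficient of variation between replicates in edgeR, beyond counting noise, was 3.47%, and part of it may be technical.

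The labels give equal replicate numbers a shared batch, so these pair the libraries. Over 10292 genes, deviations from group means correlated at -0.0925, 0.0744, -0.0213 and -0.0949 in the 4 pairs, against -0.117 to 0.141 in other pairs. Replicate libraries differed by more than counting noise (chi-square per gene of 1.73 to 5.79). Called genes are described by library, with uncalled ones of smallest p added up to 12. Hsp90ab1, Hspa8 and Hsf1 were added after their values were seen. The genes, lists, ratios and rules were chosen with earlier results of these data known. Alternatives used DESeq2 1.42.0 and limma 3.58.1, other scalings and filters, the batch as a block, FPKM input, and leaving out each library or batch.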

Additional observations from a re-analysis of the deposited data

Results flagged for a closer look

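Over the 42 genes and 3 ratios, 90 groups of 4 libraries were examined for a library that stood far from the other 3, and 4 were found, while chance gives about 1 in 20. St13 had 366.2 CPM in vehicle replicate 1, and the next highest vehicle library had 331.4 CPM. Hsf1 had 55.6 CPM in Mic-628 replicate 2, above 52.0 CPM in the next. Dnajb1 had 62.1 CPM in vehicle replicate 4, below 69.8 CPM in the next lowest vehicle library. Cct2 had 501.2 CPM in vehicle replicate 3, below 513.9 CPM in the next.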

How the results depend on the processing

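The 12 genes with the smallest p, and Hsp90ab1, kept the sign of their log2 fold change under all 25 alternatives, whereas Hspa8 kept it under 14 (-0.02 to 0.01) and Hsf1 under 23 (-0.08 to 0.02), and the median over the 42 genes stayed between 0.03 and 0.05. The count of genes that rose (2) did not change with the scaling, in limma-voom, in DESeq2 (there Hsp90aa1 and Hspd1) or when 4 libraries had to reach 1 CPM. It was 1 with the replicate block in edgeR and 1 in DESeq2 with it, 0 by the 3 limma-trend fits to FPKM (pseudocount 1, pseudocount 0.1, and pseudocount 1 over all rows), 0 at a threshold of 0.01, and 4 with no low-count filter (Hsp90aa1, Bag3, Hsph1 and Dnajb1). With 1 library or batch left out it ran between 0 (without batch 4) and 5 (without batch 1), and it was 1 without vehicle replicate 2 or 4, Mic-628 replicate 4, batch 2 or batch 3, and 4 without Mic-628 replicate 1. Genes that fell numbered 0 throughout. Of the 56 further network genes, 1 was called with DESeq2 size factors, with library size only, with the CPM filter or with the replicate block in edgeR, and 2 with no low-count filter; with a library or batch left out the count was 0 to 2. Over all rows the 749 calls became 251 with the replicate block in DESeq2, 277, 273 and 101 by the 3 limma-trend fits (in the order above), 330 at 0.01, and 292 to 802 with a library or batch left out (292 without batch 3, 331 without batch 2, 426 without vehicle replicate 2, 438 without Mic-628 replicate 3). The cause of these shifts was not tested. The log2 ratio of Hsp90aa1 to Hsp90ab1 ran from 0.17 to 0.23 with a library left out, and with the replicate block it was 0.20 (exact sign-flip test over 4 pairs, p = 0.125, which no 4 pairs can go below). The other ratios ran from 0.012 to 0.12 (Hsph1 to Hspa4) and from 0.049 to 0.27 (Dnajb1 to Dnaja2). With 4 libraries a group and effects near 10%, calls sit close to the threshold, and for Dnaja4 depth limits any statement.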
